A study of Mus musculus with 2 samples.

Results

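RNA-seq values of 10 genes that make up or surround the Lin28, Trim71 and let-7 circuit were compared between mouse embryonic stem (ES) cells and E10.5 forebrain. The genes were chosen by symbol: *Lin28a*, *Lin28b*, *Trim71*, *Zcchc11*, *Dis3l2*, *Dicer1*, *Drosha*, *Dgcr8*, *Hmga1* and *Hmga2*. All 10 were found among the 29311 genes of the tables, of which 19620 are protein-coding. The ES cells were wild-type cells of the E14 line, grown without feeders on gelatin in medium with serum and LIF. The forebrain was wild-type tissue dissected from B6CBAF1/J embryos at stage E10.5. Neither sample was treated, and each group consists of 1 sample. The labels give the same number of cells as the source of RNA in both samples, whereas the methods name single embryos as the source of forebrain RNA. The samples differ in genetic background, in culture against tissue and in the Trizol reagent used, and these differences cannot be told apart from the difference in cell type.

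LIN28A and LIN28B are RNA-binding proteins of stem and progenitor cells that bind precursors of the let-7 microRNAs and block their maturation. ZCCHC11 (TUT4) adds uridines to the bound precursor, and DIS3L2 is the exonuclease that degrades the uridylated RNA. DROSHA and DGCR8 form the microprocessor, which releases microRNA hairpins from primary transcripts in the nucleus, and DICER1 cuts these hairpins into the mature duplex in the cytoplasm. Mature let-7 recognizes sites in the 3′ UTRs of *Lin28a*, *Lin28b*, *Trim71* and *Hmga2*, so that the family and LIN28 oppose each other. TRIM71 is an RNA-binding TRIM-NHL protein of pluripotent cells and the early neural tube, the homologue of worm LIN-41. HMGA1 and HMGA2 are architectural chromatin proteins of proliferating embryonic cells.

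The mature let-7 sequences are shown because their shared seed defines the sites in the members. Of the let-7 family loci, 7 have a value in the tables, and the 5p arms of all 7 have the same bases 2 to 8. Sequences are from RefSeq (GRCm38.p6), written 5′ to 3′, with capitals for bases 2 to 8.
let-7a-5p: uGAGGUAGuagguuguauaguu
let-7c-5p: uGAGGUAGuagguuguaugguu
let-7d-5p: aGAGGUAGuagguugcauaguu
let-7f-5p: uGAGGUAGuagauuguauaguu
let-7g-5p: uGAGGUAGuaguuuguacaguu
let-7i-5p: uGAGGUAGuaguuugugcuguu
miR-98-5p: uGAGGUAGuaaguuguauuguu

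The complement of the seed, CTACCTC, was counted on the transcribed strand of the annotated 3′ UTRs (NCBIM37). It was found in *Lin28b* and *Hmga2* at 4 positions each, in *Lin28a* and *Trim71* at 2 positions each and in *Hmga1* at 1 position. The processing enzymes *Zcchc11*, *Dis3l2*, *Dicer1*, *Drosha* and *Dgcr8* held no match. Their annotated 3′ UTRs spanned 168 bases in *Drosha*, 503 in *Dis3l2*, 898 in *Zcchc11*, 1574 in *Dgcr8* and 4382 in *Dicer1*. Those of the members with a match spanned from 1183 bases in *Hmga1* to 7434 in *Lin28b*. Of all 18344 coding genes with a 3′ UTR, 10.2% held at least 1 match. Among the 9512 genes with a 3′ UTR of at least 1000 bases the share was 16.8%. The median 3′ UTR was 1472 bases long in the members and 1062 bases in all genes. As many as 4 matches occurred in 0.0654% of genes and as many as 2 in 1.25%. When the match had to be followed by A, 4 of the 10 members and 3.60% of all genes held a site, and *Hmga1* was no longer among them. *Lin28a*, *Lin28b*, *Trim71* and *Hmga2* are known let-7 targets, so that their matches were set in part by the choice of members. A match is a description of the sequence and not evidence of a site in use.

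For each of these genes, 1 or 2 of the matches are given with 10 bases on either side, on the strand of the transcript, with capitals for the match. Those of *Lin28a*, *Trim71*, *Lin28b* and *Hmga2* are the matches followed by A.
*Lin28a*, chr4:133561095-133561121: gcctgttgaaCTACCTCatttttgccg
*Lin28a*, chr4:133560457-133560483: cgccacaaacCTACCTCactgtgttga
*Trim71*, chr9:114421581-114421607: tgcctaagtcCTACCTCagcttaaatt
*Trim71*, chr9:114421485-114421511: taatttctatCTACCTCaactctttgc
*Lin28b*, chr10:45100819-45100845: ggcgggaagtCTACCTCatgcaagcac
*Hmga2*, chr10:119801271-119801297: cattcaatttCTACCTCagcatcagtt
*Hmga1*, chr17:27700227-27700253: tgttcacaaaCTACCTCtggacggttg

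Each table holds a single value per gene, which the authors call RPKM. Multiplied by exonic length, low values fall near whole multiples of a constant that was taken as the value of 1 read, and this constant was used to convert each RPKM to reads. The sum over genes was 42778181 reads for ES cells and 59780837 for E10.5 forebrain, or 1.40 times as many. The deposited values are not scaled to the total of these reads, so that their absolute size can be read only against other genes of the same tables. The median over all listed genes was an RPKM of 48.9 in ES cells and 62.4 in the E10.5 forebrain. Intervals are 95% intervals that cover the counting of reads only, exact Poisson for a value and exact conditional binomial for a ratio. Without replicates, the spread between samples of a cell type is unknown and no p-value is given.

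The labels were checked on marker lists. All 7 pluripotency markers were over 2-fold higher in ES cells, with *Pou5f1* at an RPKM of 11244 in ES cells and 42.9 in the E10.5 forebrain. All 7 markers of forebrain neuroepithelium were over 2-fold higher in the forebrain, with *Lhx2* listed at 0 in ES cells and at an RPKM of 877 in the forebrain. The forebrain sample also held erythroid (summed RPKM 330 in ES cells and 675800 in the forebrain, 5 of 5 markers over 2-fold higher), mesenchymal (55.8 and 16320, 5 of 5) and endothelial transcripts (602 and 1827, 4 of 5). Neuronal markers summed to 7725 in ES cells and 4972 in the forebrain, of which *Stmn2* made up 6910 in ES cells, and the other 4 of 5 were over 2-fold higher in the forebrain. Among 6 markers of early differentiation, *T* stood at 1112 in ES cells and 2.66 in the forebrain, while the other 5 did not exceed 9.05 in ES cells. In bulk samples such as these, fewer cells of a type cannot be told apart from less RNA per cell. The part of the other cell types in the values below was not tested.

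Of the 10 members, *Lin28a* and *Trim71* were over 2-fold higher in ES cells, and *Lin28b*, *Zcchc11*, *Dis3l2* and *Hmga2* were over 2-fold higher in E10.5 forebrain. *Dicer1*, *Drosha*, *Dgcr8* and *Hmga1* lay within 2-fold. Ratios were taken on RPKM + 1, which makes differences between low values look smaller than they are. By the same measure, 23.3% of all listed genes were higher in the ES cell sample and 25.8% in the forebrain. Of the 15551 coding genes with at least 20 reads in one sample, a limit that every member passed, 17.0% were higher in ES cells and 30.7% in the forebrain. The counts of 2 and 4 of 10 members are thus close to the shares among coding genes. The median log2 ratio of ES cells over forebrain was -0.30 for the members, -0.01 for all listed genes and -0.24 for the coding genes with at least 20 reads. The extremes of the members lay further out, at 3.67 for *Trim71* and -2.71 for *Lin28b*.

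**Figure D1:**
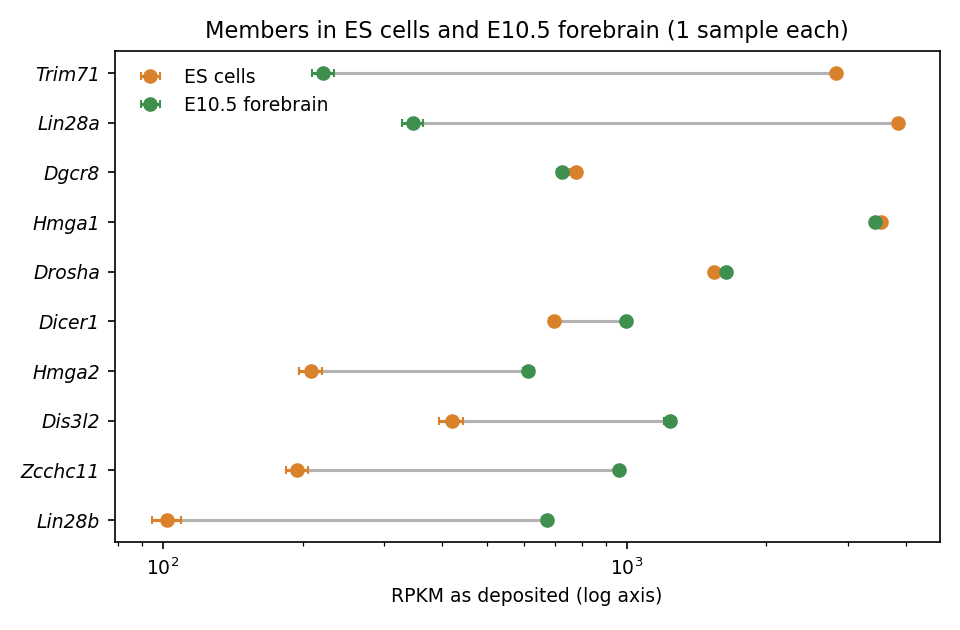
RPKM of each member (log axis) in ES cells (orange) and E10.5 forebrain (green), 1 sample each, with exact Poisson 95% intervals of the inferred reads where wider than the point. *Trim71* and *Lin28a* lie to the right in ES cells, at 2831 and 3855, while *Lin28b*, *Zcchc11*, *Dis3l2* and *Hmga2* lie to the right in the forebrain.

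*Lin28a* (ENSMUSG00000050966, chr4:133559245-133574756, minus strand) had an RPKM of 3855 (3783 to 3927, 11065 reads) in ES cells and 345 (328 to 364, 1478 reads) in E10.5 forebrain. It was thus 11.2-fold higher in ES cells (10.6 to 11.8). Among all listed genes it ranked 1088th in ES cells and 8200th in the forebrain. It remained well above the median of all genes in the forebrain sample, at the 72.0 percentile.

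*Lin28b* (ENSMUSG00000063804, chr10:45096426-45206201, minus strand), its paralogue, differed in the opposite direction. Its RPKM was 102 (94.7 to 109, 756 reads) in ES cells and 672 (657 to 688, 7442 reads) in E10.5 forebrain, 6.604-fold higher in the forebrain (6.13 to 7.13). It was the lowest of the 10 members in ES cells, at the 57.9 percentile of listed genes, and reached the 82.5 percentile in the forebrain.

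Because both paralogues were measured in the same library, their ratio does not depend on the scaling between samples. *Lin28a* stood at 37.9 times the RPKM of *Lin28b* in ES cells (35.2 to 40.8) and at 0.514 times in E10.5 forebrain (0.485 to 0.543). The more abundant paralogue was therefore *Lin28a* in ES cells and *Lin28b* in the forebrain. Of the summed RPKM of both genes, 3956 in ES cells and 1018 in the forebrain, *Lin28a* made up 97.4% and 33.9%. Taking the length of the longest transcript in place of all exons moved the ratio to 22.6 in ES cells and 0.306 in the forebrain, with the same paralogue on top in each. This last setting was chosen after the data were seen.

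*Trim71* (ENSMUSG00000079259, chr9:114420393-114473487, minus strand) had an RPKM of 2831 (2781 to 2882, 12034 reads) in ES cells and 221 (210 to 233, 1403 reads) in E10.5 forebrain. It was 12.8-fold higher in ES cells (12.1 to 13.5). Its place among all listed genes was the 95.0 percentile in ES cells and the 65.2 percentile in the forebrain, where it was the lowest of the 10 members. Within libraries, *Lin28a* stood at 1.36 times *Trim71* in ES cells (1.33 to 1.40) and at 1.56 times in the forebrain (1.45 to 1.68), and these intervals do not overlap.

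The uridylating enzyme *Zcchc11* and the nuclease *Dis3l2* were both higher in the forebrain. *Zcchc11* (ENSMUSG00000034610, chr4:108132031-108232026, plus strand) had an RPKM of 195 (185 to 205, 1384 reads) in ES cells and 963 (944 to 982, 10206 reads) in E10.5 forebrain, 4.95-fold higher in the forebrain (4.68 to 5.24). *Dis3l2* (ENSMUSG00000053333, chr1:88600379-88946672, plus strand) had an RPKM of 419 (395 to 444, 1106 reads) in ES cells and 1240 (1206 to 1276, 4880 reads) in the forebrain, 2.96-fold higher there (2.77 to 3.16). Both genes thus differed from *Lin28a* in the direction of their ratio and shared that of *Lin28b*.

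The homologues of both enzymes were compared with them. *Zcchc6* (TUT7), which also uridylates let-7 precursors, had an RPKM of 331 in ES cells and 561 in the forebrain, within 2-fold. *Zcchc11* accordingly stood at 0.587 times *Zcchc6* in ES cells (0.545 to 0.632) and at 1.72 times in the forebrain (1.65 to 1.78), so that their order was exchanged. With the length of the longest transcript these ratios were 0.842 and 2.46. *Dis3*, the catalytic subunit of the exosome, had an RPKM of 1938 in ES cells and 1226 in the forebrain, also within 2-fold. *Dis3l2* stood at 0.216 times *Dis3* in ES cells (0.203 to 0.231) and at 1.01 times in the forebrain (0.973 to 1.05). *Dis3l*, the cytoplasmic exosome nuclease, had an RPKM of 175 in ES cells and 499 in the forebrain, 2.85-fold higher there, and *Dis3l2* stood at 2.39 times (2.18 to 2.62) and 2.49 times (2.38 to 2.60) its value, with overlapping intervals. With the length of the longest transcript, *Dis3l2* stood at 1.631 and 1.695 times *Dis3l*.

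The core enzymes of microRNA biogenesis lay within 2-fold. *Drosha* (ENSMUSG00000022191, chr15:12754570-12865045, plus strand), the nuclear RNase III, had an RPKM of 1545 (1510 to 1580, 7506 reads) in ES cells and 1636 (1606 to 1665, 11849 reads) in E10.5 forebrain. Its RNA-binding partner *Dgcr8* (ENSMUSG00000022718, chr16:18254041-18289342, minus strand) had an RPKM of 775 (753 to 798, 4628 reads) in ES cells and 725 (708 to 743, 6451 reads) in the forebrain. *Dicer1* (ENSMUSG00000041415, chr12:105925952-105990162, minus strand) had an RPKM of 696 (678 to 714, 5733 reads) in ES cells and 995 (977 to 1013, 12216 reads) in the forebrain, 1.43-fold higher there (1.39 to 1.48).

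The sign of the small differences of *Drosha* and *Dgcr8* followed the scaling between the samples. The log2 ratio of *Drosha* was -0.08 as deposited and between -0.36 and 0.16 under 4 other scalings, and that of *Dgcr8* was 0.10 as deposited and between -0.18 and 0.33. The ratio of *Dicer1* was negative under each of them, between -0.79 and -0.28. Within libraries, *Drosha* stood at 1.99 times *Dgcr8* in ES cells (1.92 to 2.07) and at 2.26 times in the forebrain (2.19 to 2.33). *Dicer1* stood at 0.451 times *Drosha* in ES cells (0.435 to 0.467) and at 0.608 times in the forebrain (0.593 to 0.624). With the length of the longest transcript, *Drosha* stood at 1.605 and 1.817 times *Dgcr8*, and *Dicer1* at 0.354 and 0.478 times *Drosha*.

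The chromatin proteins of the group differed from each other. *Hmga2* (ENSMUSG00000056758, chr10:119798331-119913525, minus strand), with 4 let-7 seed matches, had an RPKM of 208 (196 to 220, 1154 reads) in ES cells and 614 (597 to 631, 5073 reads) in E10.5 forebrain, 2.95-fold higher in the forebrain (2.77 to 3.15). *Hmga1* (ENSMUSG00000046711, chr17:27693565-27700619, plus strand) had an RPKM of 3535 (3445 to 3628, 5762 reads) in ES cells and 3432 (3359 to 3507, 8339 reads) in the forebrain. It was the highest member in the forebrain, and its log2 ratio of 0.04 ranged from -0.23 to 0.28 under other scalings, on both sides of 0. *Hmga1* stood at 17.0 times *Hmga2* in ES cells (15.95 to 18.1) and at 5.59 times in the forebrain (5.401 to 5.79). With the length of the longest transcript these ratios were 10.02 and 3.3, outside the counting intervals.

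The values of *Hmga1* are uncertain because much of its sequence is not unique. Of its 2135 windows of 50 bases, 1403 (65.7%) also occur outside the gene in annotated exons, and how the authors' counting divided such reads is not given in the sources used here. The other 9 members share no window of this length with a transcript of another protein-coding gene. Pseudogenes were not searched, and the genes of the lists below were not checked in this way.

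The order of the members by RPKM in ES cells was *Lin28a*, *Hmga1*, *Trim71*, *Drosha*, *Dgcr8*, *Dicer1*, *Dis3l2*, *Hmga2*, *Zcchc11* and *Lin28b*. In E10.5 forebrain it was *Hmga1*, *Drosha*, *Dis3l2*, *Dicer1*, *Zcchc11*, *Dgcr8*, *Lin28b*, *Hmga2*, *Lin28a* and *Trim71*. Among neighbours in these orders, the counting intervals overlapped for *Hmga2* and *Zcchc11* in ES cells and for *Dicer1* and *Zcchc11* in the forebrain. The members spanned 102 to 3855 in ES cells and 221 to 3432 in the forebrain. The RPKM of *Lin28a*, *Lin28b*, *Trim71* and *Hmga2*, which oppose or are repressed by let-7, summed to 6995 in ES cells and 1853 in the forebrain, a ratio of 3.78 that was carried by *Lin28a* and *Trim71*.

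**Figure D2:**
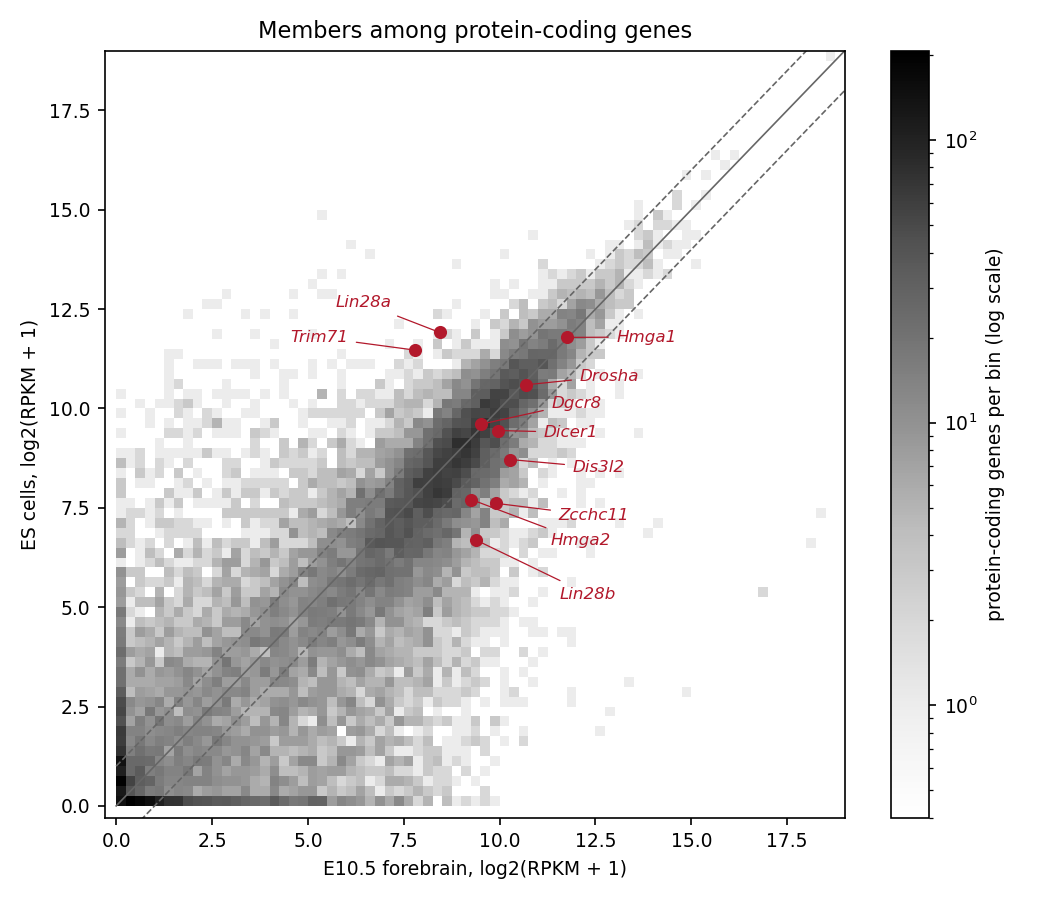
Levels of the 19620 protein-coding genes as log2(RPKM + 1), E10.5 forebrain on the horizontal and ES cells on the vertical axis, with the number of genes per bin in grey and the members in red. The solid line marks equal values and the dashed lines a 2-fold difference; *Lin28a* and *Trim71* lie above the upper dashed line, and 4 members lie below the lower one.

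The coding genes closest to 4 of the members in this plane were listed, as a description over 2 samples. For *Lin28a* they were *Plekhf2*, with an RPKM of 3622 in ES cells and 371 in the forebrain, *Mybl2* (3468 and 365) and *Gm17379* (3145 and 351). For *Trim71* they were *Ak1* (3058 and 225), *Sgk1* (2659 and 204) and *Itpk1* (2650 and 192). For *Lin28b* they were *Zfp516* (99.6 and 649), *Ppp6r2* (96.7 and 673) and *Cpd* (107 and 652). For *Hmga2* they were *Dync2h1* (208 and 626), *Ttpal* (203 and 610) and *Pacs2* (211 and 594).

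The partners of the microprocessor and of DICER1 were examined as a list. Of 12 such genes, 11 lay within 2-fold and 1, *Prkra*, was over 2-fold higher in the forebrain, with a median log2 ratio of -0.06, against a background of 30.7% of coding genes higher in the forebrain and 17.0% in ES cells. The number higher in ES cells, 0 as deposited, was 1 after scaling by the upper quartile and 2 after centring on coding genes. *Prkra* (PACT), a double-stranded RNA-binding partner of DICER1, had an RPKM of 169 (281 reads) in ES cells and 1343 (3325 reads) in the forebrain, 7.94-fold higher. *Tarbp2* (TRBP), the other such partner, had an RPKM of 704 in ES cells and 412 in the forebrain. The RPKM of *Tarbp2* was therefore 4.16 times that of *Prkra* in ES cells (3.68 to 4.72) and 0.307 times in the forebrain (0.291 to 0.324), and 5.51 and 0.407 times with the length of the longest transcript. *Hnrnpa1*, which binds let-7 and other primary transcripts, stood at 1455 and 746, and *Ncbp2*, a subunit of the nuclear cap-binding complex, at 1220 and 1822. The highest values of the list were those of *Ran*, the GTPase of nuclear transport, in ES cells (6253, against 4436 in the forebrain) and of the microprocessor helicase *Ddx17* in the forebrain (5484, against 4288 in ES cells).

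Among 11 Argonaute and silencing genes, 3 were over 2-fold higher in the forebrain, 1 was higher in ES cells and 7 lay within 2-fold, with a median log2 ratio of -0.47. The shares among coding genes with at least 20 reads were 30.7% and 17.0%. After scaling by the column total 5 genes were higher in the forebrain, and after centring on coding genes 2. *Eif2c1* (AGO1) had an RPKM of 331 in ES cells and 958 in the forebrain, and *Eif2c4* (AGO4) of 3.63 (23 reads) and 59.2 (547 reads). *Tnrc6a*, a GW182 scaffold protein, had an RPKM of 308 in ES cells and 726 in the forebrain. *Mov10*, an RNA helicase, was the gene higher in ES cells, at 280 against 80.5. Of the summed RPKM of the 4 Argonaute genes, *Eif2c1* made up 51.1% in ES cells and 67.7% in the forebrain, and *Eif2c2* (AGO2), the Argonaute with slicing activity, 35.6% and 19.95%. The highest gene of the list was *Cnot1*, the scaffold of the deadenylase complex, in ES cells (2271, against 1649) and the nuclease *Snd1* in the forebrain (1911, against 1939 in ES cells).

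Of 13 other genes of RNA 3′ end addition and decay, 12 lay within 2-fold and *Dis3l* was higher in the forebrain, with a median log2 ratio of -0.09 (background 30.7% in the forebrain and 17.0% in ES cells). After scaling by the column total 2 genes were higher in the forebrain, and after scaling by the upper quartile or centring 1 was higher in ES cells. *Tut1*, which uridylates U6 RNA, had an RPKM of 1153 in ES cells and 599 in the forebrain. *Xrn2*, the nuclear 5′ to 3′ exonuclease, was the highest of the list in both samples, at 3868 in ES cells and 2923 in the forebrain.

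**Figure D3:**
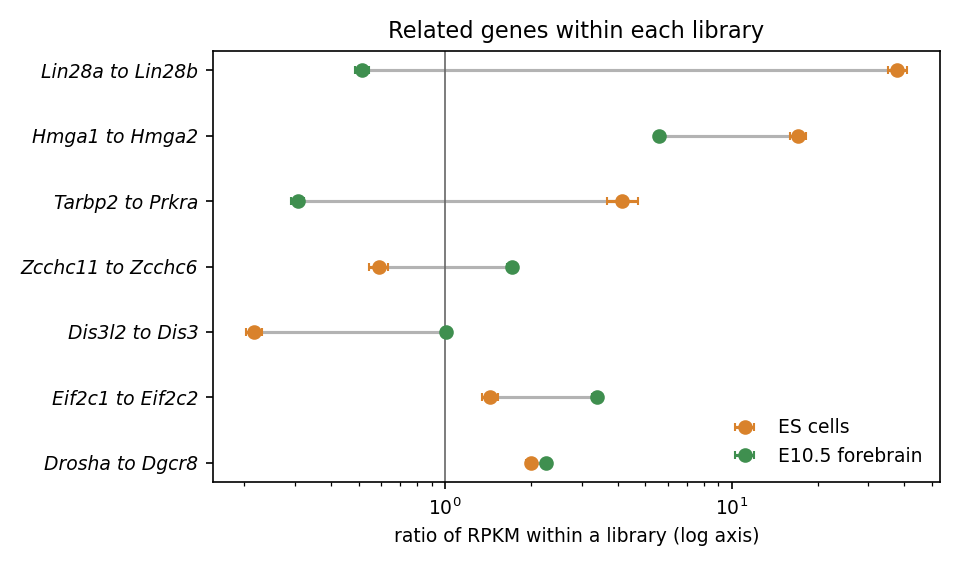
Ratio of the RPKM of related genes within each library (log axis), in ES cells (orange) and E10.5 forebrain (green), with exact conditional 95% counting intervals where wider than the point. The ratio passes from above to below 1 between ES cells and the forebrain for *Lin28a* to *Lin28b* (37.9 and 0.514) and for *Tarbp2* to *Prkra* (4.16 and 0.307), and in the opposite direction for *Zcchc11* to *Zcchc6* (0.587 and 1.72).

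A list of 20 genes known as let-7 targets was examined. Of these, 8 (against a background of 30.7%) were over 2-fold higher in the forebrain, 1 was higher in ES cells (background 17.0%) and 11 lay within 2-fold, with a median log2 ratio of -0.71. The number higher in the forebrain followed the scaling. It was 10 after scaling by the column total (median -0.98) and 6 after centring on coding genes (median -0.47). A seed match was found in the 3′ UTR of 12 of the 20 genes, against 10.2% of all coding genes. Among coding genes with a 3′ UTR of at least 1000 bases the share was 16.8%. The 20 genes were listed as known targets, so that their share was set in part by this choice. *Ccnd2* (cyclin D2) had an RPKM of 16.9 (79 reads) in ES cells and 3829 (26646 reads) in the forebrain, 226-fold higher, and its annotated 3′ UTR held no match. *Igf1r* and *Insr*, receptors of insulin-like growth factor and insulin, had an RPKM of 103 and 52.7 in ES cells and of 771 and 268 in the forebrain. The zinc finger gene *Plagl2* had an RPKM of 37.3 in ES cells and 184 in the forebrain. *Cdk6*, a G1 kinase and the gene higher in ES cells, had an RPKM of 491 there and 166 in the forebrain, and was named after its values were seen. The highest genes of the list were *Igf2bp1*, an RNA-binding protein with 4 seed matches, in ES cells (3825, against 2516 in the forebrain) and *Ccnd1* (cyclin D1) in the forebrain (4464, against 2290 in ES cells).

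Among 9 other genes for HMG proteins, 4 were over 2-fold higher in the forebrain, 1 was higher in ES cells and 4 lay within 2-fold, with a median log2 ratio of -0.80. The shares among coding genes with at least 20 reads were 30.7% and 17.0%, and after scaling by the column total no gene of the list was over 2-fold higher in ES cells. *Hmgn3*, a nucleosome-binding protein, had an RPKM of 23.3 (35 reads) in ES cells and 1142 (2591 reads) in the forebrain. *Hmgb3* had an RPKM of 48.9 in ES cells and 272 in the forebrain, and *Hmgn5* of 15.8 and 51.1. The gene higher in ES cells was *Hmgb2*, at 286 against 131, named after its values were seen. *Hmgn1* had the highest value of the list in ES cells, at 687, against 744 in the forebrain.

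**Figure D4:**
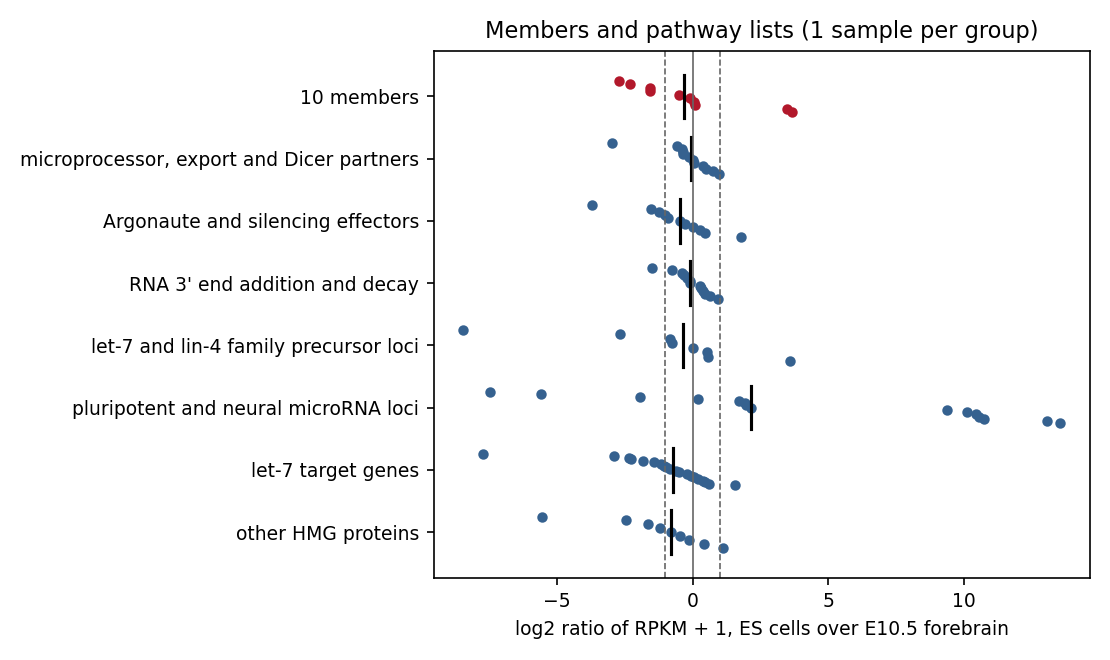
Log2 ratio of RPKM + 1, ES cells over E10.5 forebrain, of the 10 members (red) and of each gene of the pathway lists (blue), with the median of each group as a black bar and a 2-fold difference as dashed lines. The biogenesis partners (median -0.06) and the decay genes (median -0.09) cluster near 0, whereas 2 members lie above 3 and the microRNA loci spread most widely.

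MicroRNA loci were described by inferred reads, since their exonic lengths are short and their RPKM values correspondingly coarse. These reads are not scaled for depth, and the forebrain library held 1.40 times as many reads on genes. The libraries were made from total RNA depleted of rRNA, so that reads at these loci do not measure mature microRNAs. Of 15 loci of the let-7 and lin-4 families, 8 have a value, with a median log2 ratio of -0.37, and 2 were over 2-fold higher in the forebrain and 1 in ES cells, against 25.8% and 23.3% of all listed genes. After scaling by the column total, 4 were higher in the forebrain. *Mirlet7d* held 79 reads in ES cells and 197 in the forebrain, *Mirlet7a-1* 27 and 40, and *Mir98* 22 and 22. Their RPKM in ES cells and the forebrain was 936 and 1567 for *Mirlet7d*, 351 and 349 for *Mirlet7a-1*, and 249 and 167 for *Mir98*. All 3 of these loci lay within 2-fold. *Mirlet7c-1* is listed at 0 in ES cells and held 40 reads in the forebrain, at least 8.95-fold higher against a floor of 3 reads. *Mirlet7g* held 9 reads in ES cells and 1 in the forebrain, *Mirlet7i* 3 and 8, and *Mirlet7f-2* 2 and 2. *Mir125a*, of the lin-4 family, held 30 reads in ES cells and 288 in the forebrain.

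LIN28 recognizes a GGAG element in the terminal part of let-7 hairpins. The letters GGAG alone are not particular to let-7, since they also follow the 5p arm at the loci *Mir125a* and *Mir294*. They follow the 5p arm in the hairpins of 6 of the 7 let-7 family loci, the exception being *Mir98*. The hairpins of *Mirlet7g* and *Mir98* are shown for this difference, read from NCBIM37 at the coordinates of the tables and identical to RefSeq, with capitals for GGAG.
*Mirlet7g*, chr9:106081171-106081258, plus strand: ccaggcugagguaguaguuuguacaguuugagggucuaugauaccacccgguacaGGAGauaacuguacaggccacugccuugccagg
*Mir98*, chrX:148347757-148347864, plus strand: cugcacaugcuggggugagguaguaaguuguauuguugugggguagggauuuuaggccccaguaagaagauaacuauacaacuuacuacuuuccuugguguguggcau

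Loci of pluripotent and neural microRNAs were described in the same way. All 7 loci of the miR-290 cluster, the main microRNAs of mouse ES cells, held between 485 (*Mir295*) and 2440 reads (*Mir291b*) in ES cells and between 0 and 2 reads in the forebrain. *Mir293* held 1118 reads in ES cells and 1 in the forebrain. *Mir291a* and *Mir294* are listed at 0 in the forebrain and were at least 401.5-fold and 294-fold higher in ES cells, against a floor of 3 reads. The loci of the miR-302 and miR-367 cluster held between 9 and 15 reads in ES cells and between 3 and 13 in the forebrain. *Mir9-2*, of a neural microRNA family, held 1 read in ES cells and 283 in the forebrain, *Mir124a-1* 1 and 6, and *Mir124a-3* 0 and 5. Of these 15 loci with a value, 11 were over 2-fold higher in ES cells and 3 in the forebrain, against 23.3% and 25.8% of all listed genes, with a median log2 ratio of 2.14. The 11 are the 7 loci of the miR-290 cluster and *Mir302a*, *Mir302c*, *Mir302d* and *Mir367* of the other cluster. They do not count as independent genes, and the list was made of microRNAs known from such cells. For *Mir302c*, at 3.35-fold, the counting interval included 1 (0.936 to 14.9). So did that of *Mir124a-1*, 4.025-fold higher in the forebrain (0.488 to 185). *Mir124a-3* was at least 1.12-fold higher in the forebrain, against a floor of 3 reads.

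**Figure D5:**
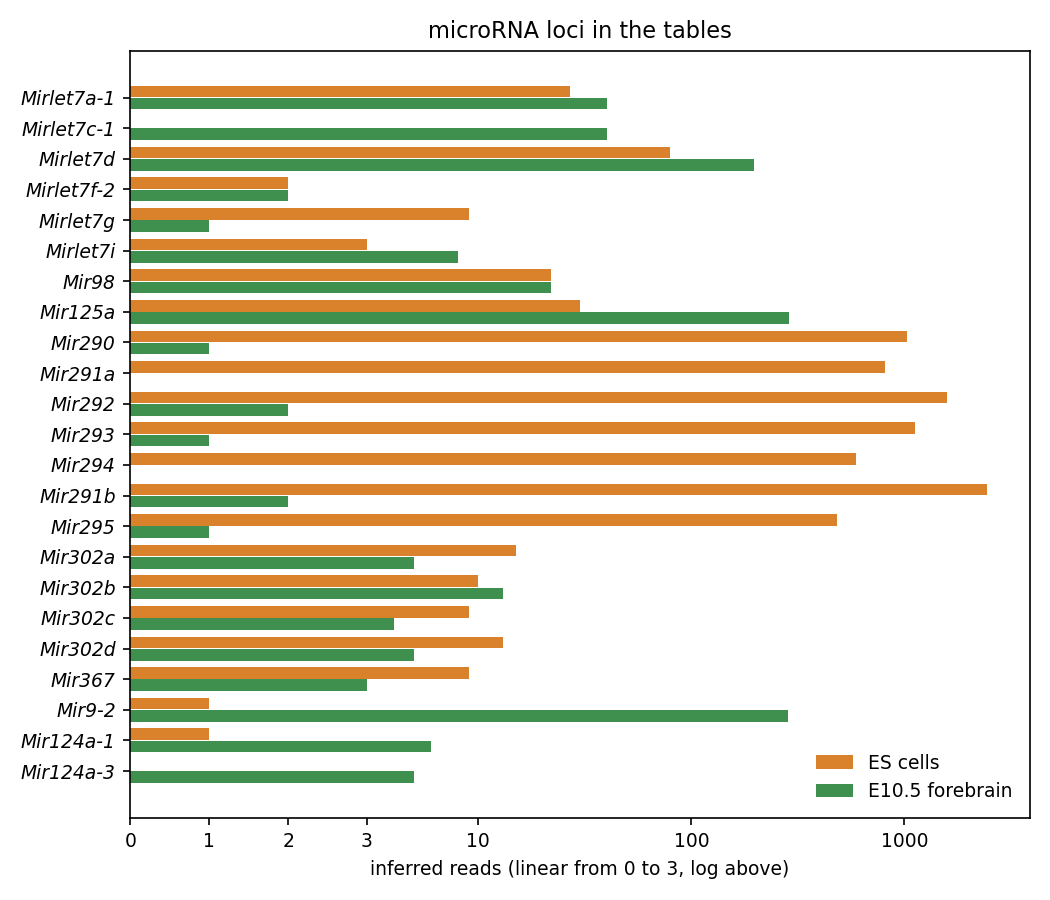
Inferred reads at each microRNA locus with a value, in ES cells (orange) and E10.5 forebrain (green), on an axis that is linear from 0 to 3 and logarithmic above. The reads are not scaled for the depth of each library. The miR-290 cluster holds 485 to 2440 reads in ES cells and at most 2 in the forebrain, *Mir9-2* and *Mir125a* hold more in the forebrain, and the let-7 loci range from 0 to 197 reads.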

How the data were processed

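Gene values of 2 RNA-seq samples were used. Per the labels and the methods, the authors depleted total RNA of rRNAs, built strand-specific single-end libraries and mapped reads to NCBIM37 (mm9). The deposited unit is RPKM, computed by the authors with the HTSstation RNA-seq pipeline per the methods, while the labels name its 4C-seq pipeline. The submitters' processing notes list Bowtie 0.12.7. The labels give 100 bp reads and the methods another length. Scaling between samples and the use of strand in counting are not given in the sources used here.

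All 29311 genes have the coordinates of the annotation of this build, which gave symbols, exonic lengths and 3′ UTRs. RPKM multiplied by exonic kb gave steps of 1.221 for ES cells and 0.8191 for forebrain, taken as 1 read. Of 6118 and 6523 genes with low values and up to 2500 bp of exon, 59.3% and 61.3% lay within 0.05 of a whole multiple (10.0% by chance). Ratios used a pseudocount of 1 and a fold of 2, floors 3 reads. The step search and the intervals were tested on simulated data. Alternatives covered pseudocounts, scalings, folds, gene sets and forms of the seed match. RefSeq tables matched 21 of 23 microRNA loci for mature sequences and 20 for hairpins. *Mirlet7b*, *Mirlet7c-2* and *Mir125b-2* are annotated but not listed, which is taken as 0 in both samples. The remaining let-7, miR-125, miR-9 and miR-124 loci were not matched by symbol, and their values were not analysed here.

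The genes named were the members, their homologues, the 3 nearest coding genes in log2(RPKM + 1), and in each pathway list up to 4 genes with the largest ratio among those with at least 20 reads plus the highest gene of each sample. A few genes that this rule names are not reported here. Members and lists were chosen with earlier results of these data known. Python 3.11.15, numpy 2.4.6, pandas 2.3.3, scipy 1.17.1 and matplotlib 3.10.9 were used.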

Additional observations from a re-analysis of the deposited data

How the results depend on the processing

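No paired analysis was possible because each group has 1 sample, and no sample could be left out. Of 144 alternatives, 80 were labelled as leaving their value the same and 64 as moving it. Ratios were judged by the counting interval and counts by a change of at most 1.5 times. Percentiles, which have no counting interval, were judged by neither rule. No alternative changed the sign of a member ratio past 2-fold, and none of those used could have done so. Each scaling shifts all log2 ratios by the same amount, the largest being -0.27. The smallest of these ratios in size was -1.56, for *Hmga2*. A pseudocount added to both values cannot change the sign of a ratio. The median log2 ratio of the members was -0.30 as deposited, -0.57 after scaling by the column total, -0.21 by the upper quartile, -0.39 by the reads on genes, -0.061 after centring on coding genes and -0.52 without *Hmga1*, the last chosen after the data were seen. These scalings shift every log2 ratio by -0.27, 0.09, -0.09 and 0.24. The ratio of the summed RPKM of *Lin28a*, *Lin28b*, *Trim71* and *Hmga2* was 3.78 as deposited and 3.13, 4.01, 3.54 and 4.45 under the same scalings. With a fold of 4, 2 members in place of 4 were higher in E10.5 forebrain, and 21 in place of 37 pathway genes passed in either direction, since fewer genes pass a larger fold. Of all listed genes, 49.0% were past 2-fold in either direction. Their share past a fold of 4 is not given here. Depth limits the microRNA loci with under 20 reads.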

Other observations

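Several microRNA loci lie within a listed gene on the same strand, and the values of these hosts were compared as a description. *Mirlet7g* lies in an intron of *Wdr82*, which had an RPKM of 2843 in ES cells and 2522 in the E10.5 forebrain. *Mirlet7f-2* and *Mir98* lie in an intron of *Huwe1*, a ubiquitin ligase gene with an RPKM of 1516 in ES cells and 1262 in the forebrain. *Mir125a* overlaps an exon of *Ncrna00085*, with an RPKM of 119 (191 reads) in ES cells and 552 (1316 reads) in the forebrain. *Mir9-2* overlaps an exon of the long non-coding RNA *C130071C03Rik*, with an RPKM of 2.50 (7 reads) in ES cells and 1742 (7263 reads) in the forebrain. *Mir124a-1* overlaps an exon of *A930011O12Rik*, with an RPKM of 10.2 (34 reads) in ES cells and 101 (499 reads) in the forebrain. Whether reads of a locus inside an exon were also counted for its host was not tested.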
